A study of Saccharomyces cerevisiae with 6 samples.

Results

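The genes described here carry sulfur from outside the budding yeast cell into cysteine, methionine and S-adenosylmethionine. They were taken as 33 listed genes, all matched to the array annotation by 1 probe set each, out of 5449 Saccharomyces cerevisiae genes tested. They fall into 5 genes of uptake, 8 of sulfate reduction, 5 of homoserine supply and sulfide fixation, 6 of the methyl cycle, 4 of transsulfuration and 5 regulators. Messenger RNA was measured on 6 Affymetrix arrays, 3 of a BAS1 deletion mutant and 3 of the wild-type reference strain FY4. BAS1 encodes a DNA-binding activator best known from the genes of purine and histidine synthesis. All cultures were grown exponentially in batch in glucose minimal medium at 30°C and collected at the same density, per the labels and design text, which name no strain background or marker for the mutant and no sulfur source. Whether the 3 samples of a strain came from independent cultures is not stated, so the p-values measure only their spread, which may be technical. Levels are log2 of the deposited intensities, differences are deletion minus wild type, and probe sets of different genes are not compared in level.

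As background, yeast takes up sulfate, activates it with ATP, reduces it to sulfite and then to sulfide, and fixes the sulfide on O-acetylhomoserine, which comes from aspartate. The resulting homocysteine is methylated to methionine, passed on to S-adenosylmethionine, the main methyl donor, or converted to cysteine through cystathionine. Much of the pathway is switched on by the activator Met4, which is brought to promoters by Cbf1 or by Met31 and Met32 and is held in check by the ubiquitin ligase subunit Met30. Intensities of all 33 genes lay above background in all 6 arrays. The background of an array was the 95th percentile of its probe sets that match no S. cerevisiae gene of the RefSeq table.

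The deleted gene was read first. BAS1 (YKR099W) stood at 4.86, 4.76 and 4.86 in the deletion arrays and at 11.18, 10.96 and 11.14 in the wild-type arrays. The deletion values were below background, so the gene was at least 29.1-fold lower (limma adjusted p = 2.7e-07). With 3 arrays on each side, an exact two-sided permutation test cannot go below its value here, p = 0.1. The scale of the arrays moved with strain, since the median over all tested genes was 11.10 to 11.14 in deletion arrays and 10.94 to 10.997 in wild-type arrays. Array centring removes this shift and lowers every log2 difference by 0.15. In the same arrays, 14 of 16 control probe sets for 18S and 25S rRNA were lower in the deletion strain, with a median difference of -3.09, and its part in the results was not tested. Of 6 a-cell genes checked, all above background in both strains, 0 were higher and 1 was lower (0 and 2 after array centring), namely BAR1 at 12.11 ± 0.11 in the deletion strain and 12.72 ± 0.08 in wild type (SD, n = 3 each). Of 6 haploid genes 2 were higher and 3 lower. For comparison, 39.6% of all tested genes were higher and 19.8% lower. These shares were 27.2% and 33.1% after array centring, and 24.9% and 35.5% after quantile normalization. Of 4 alpha-cell genes, 4 were higher in the deletion strain (3 after array centring, and 2 higher and 1 lower after quantile normalization), and MF(ALPHA)1 stood at 9.91 ± 0.20 there and, below background, at 5.55 ± 0.08 in wild type (SD, n = 3 each). The part of this marker difference in the results was not tested.

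Of the 33 sulfur genes, 23 were higher in the deletion strain, 1 was lower and 9 did not pass limma's adjusted p of 0.05. The share of higher genes was 69.7%, against 39.6% of all tested genes, and the share of lower genes was 3.03%, against 19.8% of all tested genes. In either direction 72.7% were called, against 59.5% of all tested genes. The median difference was 0.25 for the sulfur genes and 0.11 for all tested genes. Among the risers were SAM3, the S-adenosylmethionine permease gene, at 2.75-fold, MET32, a gene of a Met4-recruiting zinc-finger protein, at 2.42-fold, STR2 of transsulfuration at 2.09-fold and MET28, which encodes a cofactor of Met4, at 2.07-fold. These were the 4 risers of at least 2-fold, 12.1% of the sulfur genes, against 8.33% of all tested genes, and 0 fell by 2-fold, against 1.14% of all tested genes. At 0.5 log2 or more 10 genes rose, or 30.3%, against 20.2% of all tested genes, and 0 fell, against 5.3% of all tested genes. After array centring 15 sulfur genes were higher and 3 lower, or 45.5% and 9.09%, against 27.2% and 33.1% of all tested genes. Quantile normalization gave 21 higher and 2 lower, or 63.6% and 6.06%, against 24.9% and 35.5% of all tested genes. No set test was run on the list, so these shares are a description.

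**Figure D1:**
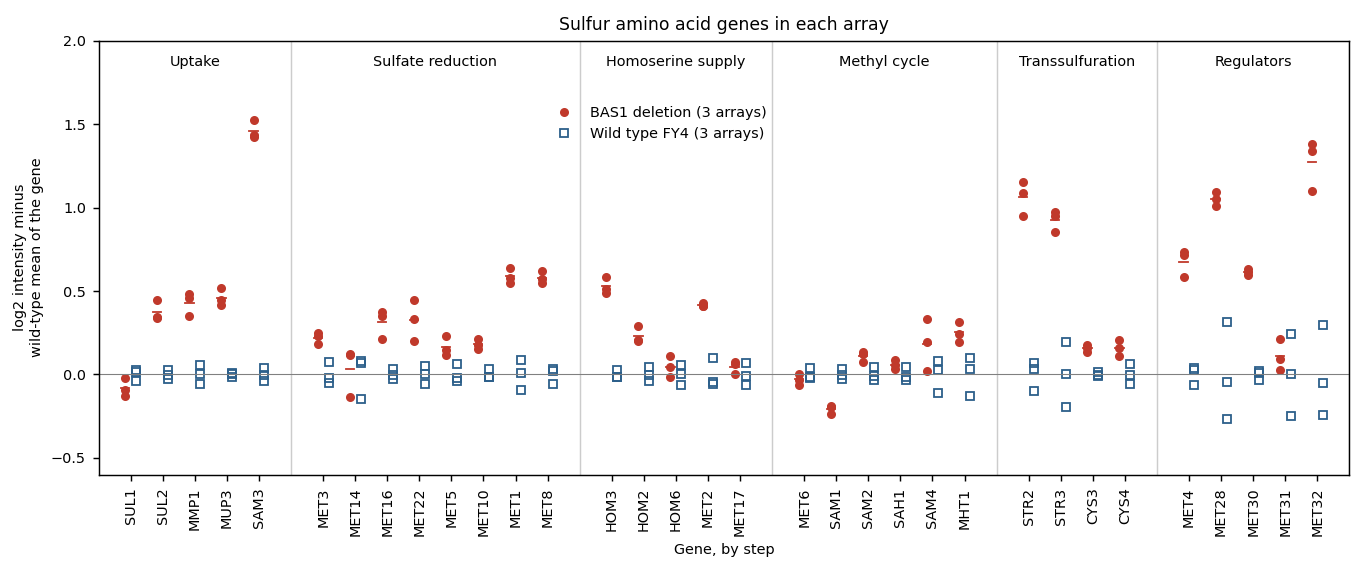
Log2 intensity of each of the 33 genes in each array, minus that gene's wild-type mean, by pathway step. Filled red circles are the 3 deletion arrays, with a dash at their mean, and open blue squares the 3 wild-type arrays. SAM3, STR2, STR3, MET28 and MET32 stand clear of wild type, whereas MET14, MET17 and MET6 overlap with it.

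In 24 genes all deletion values lay above all wild-type values, 72.7% of the sulfur genes, against 43.7% of all tested genes, and in 1 gene, SAM1, they lay below, against 23.7% of all tested genes. Averaged over the 33 genes, the level above the array's own median was 1.83, 1.87 and 1.82 log2 in the deletion arrays and 1.58, 1.62 and 1.63 log2 in the wild-type arrays. The arrays also differed in their poly-A spike controls, which were low in 1 deletion and 2 wild-type arrays and high in 2 deletion and 1 wild-type array. Within the low-spike arrays 11 sulfur genes were called higher and 0 lower, with a median of 0.23, against 20.2% and 9.01% of all tested genes. Within the high-spike arrays 17 were called higher and 0 lower, with a median of 0.35, against 33.1% and 11.3% of all tested genes. Each of these fits has 1 lone array, whose spread is taken to be that of the remaining arrays, so their calls are weak evidence. Calls of MET3, MET5, MET10, HOM2, SAM1, CYS3 and CYS4 ended within both sets, and those of SUL2, MET16, MET22, MET2, MHT1 and MET32 within the low-spike arrays. The 24 called genes had the same direction within both sets, but the calls were made on the same arrays. The groups did not overlap in any of these genes, so that direction was fixed in advance.

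**Figure D2:**
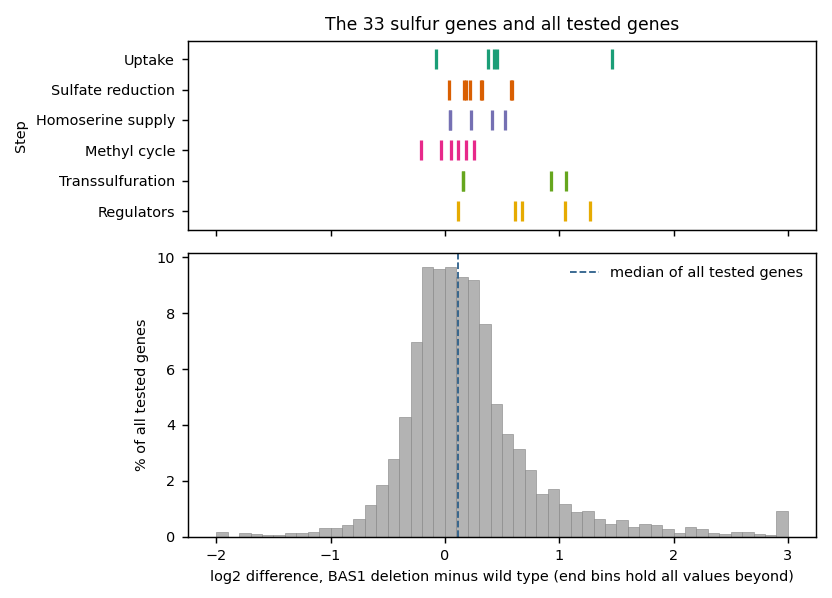
Log2 differences, deletion minus wild type, of the sulfur genes by step (ticks, above) and the share of all 5449 tested genes in bins of 0.1 (bars, below), with values beyond the axis placed in the end bins. The dashed line is the median of all tested genes, 0.11, and the sulfur genes span -0.21 to 1.46.

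Among the 5 uptake genes 4 rose and none fell, with a median difference of 0.43. For this and the later steps, the shares of all tested genes were 39.6% higher and 19.8% lower. After array centring they were 27.2% and 33.1%, and after quantile normalization 24.9% and 35.5%. SAM3 (YPL274W) had 12.76, 12.85 and 12.75 in the deletion arrays, against 11.32, 11.29 and 11.37 in the wild-type arrays. The strains were far apart and each was tight, giving a difference of 1.46 (SE 0.05, adjusted p = 5.3e-06). Of all tested genes, 4.59% had a larger rise than SAM3. MUP3, a low-affinity methionine permease gene, rose by 0.46 (SE 0.05), and MMP1, the S-methylmethionine permease gene, rose by 0.43 (SE 0.06). The sulfate permease genes were unlike each other. SUL2 had 13.37, 13.48 and 13.38 in the deletion arrays and 13.01, 13.06 and 13.03 in the wild-type arrays, a rise of 0.38 (SE 0.05, adjusted p = 0.0010). SUL1 had 13.11, 13.21 and 13.14 in the deletion arrays and 13.20, 13.25 and 13.26 in the wild-type arrays. Those groups overlapped, and the difference of -0.08 (95% interval -0.20 to 0.04) did not pass, though after array centring SUL1 was lower by 0.24 log2 (centred difference -0.24, adjusted p = 0.0074).

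Of the 8 genes of sulfate reduction 7 rose, by 0.16 to 0.59, and none fell, with a median difference of 0.27. The largest rises were in the genes of siroheme synthesis, the prosthetic group that sulfite reductase needs. MET1 (YKR069W) had 12.60, 12.66 and 12.57 in the deletion arrays and 12.03, 12.11 and 11.93 in the wild-type arrays, a rise of 0.59 (SE 0.06, adjusted p = 3.5e-04). MET8 (YBR213W) had 11.72, 11.77 and 11.69 in the deletion arrays and 11.17, 11.18 and 11.09 in the wild-type arrays, a rise of 0.58 (SE 0.05, adjusted p = 1.5e-04). In both genes every deletion array was above every wild-type array. The other genes of the step moved less. MET22, whose product clears the by-product PAP, rose by 0.33 (SE 0.07), MET16, the PAPS reductase gene, by 0.31 (SE 0.06), and MET3, the ATP sulfurylase gene, by 0.22 (SE 0.05). The sulfite reductase subunit genes MET10 and MET5 rose by 0.18 (SE 0.04) and 0.16 (SE 0.05). After quantile normalization MET16 was 0.20 and MET22 0.21, and the MET10 call ended (0.11).

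MET14, the adenylylsulfate kinase gene, was the member of this step that did not pass. It had 13.70, 13.95 and 13.95 in the deletion arrays and 13.68, 13.90 and 13.91 in the wild-type arrays. Replicate 1 of each strain was low, the groups overlapped, and the difference was 0.04 (95% interval -0.20 to 0.27). After array centring MET1, MET8 and MET16 were called as higher and the other genes of the step were not, with MET3 at 0.07, MET22 at 0.17, MET5 at 0.0094 and MET10 at 0.03. The MET5 call ended in 5 of 6 fits that left out an array, with adjusted p from 0.0576 to 0.11, the exception being the fit without wild-type replicate 3.

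**Figure D3:**
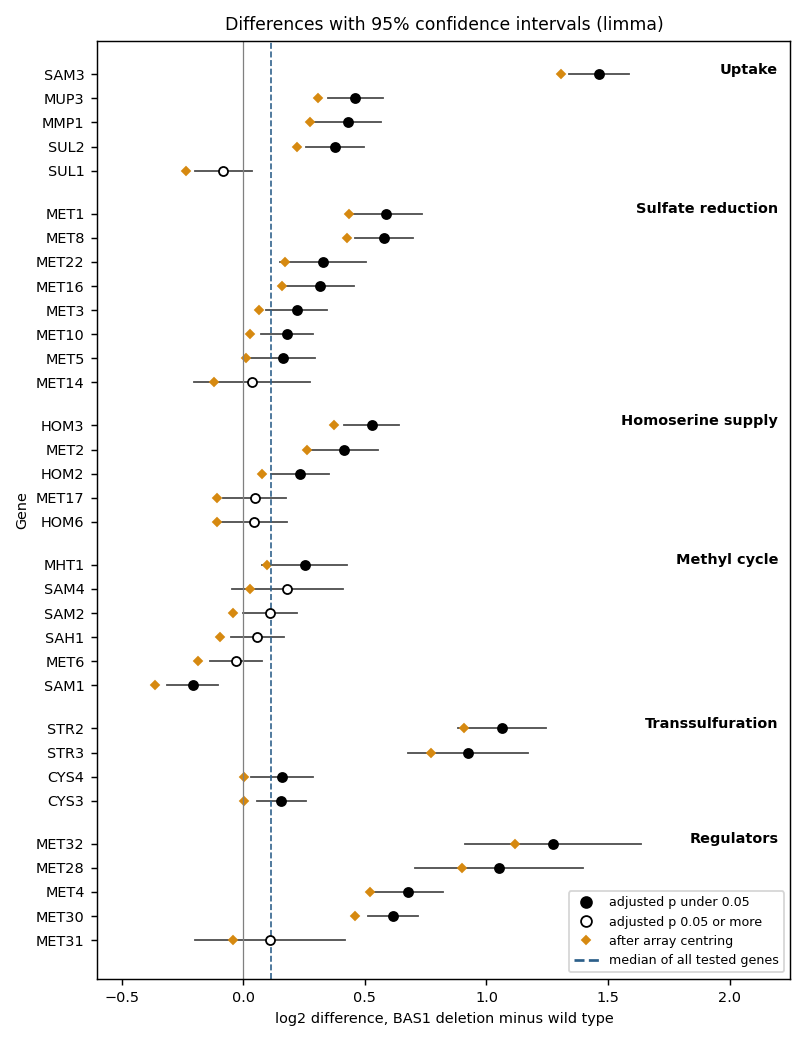
Log2 difference, deletion minus wild type, of each sulfur gene with limma's 95% confidence interval, by step. Filled circles passed the threshold, open circles did not, orange diamonds give the difference after array centring and the dashed line is the median of all tested genes. Of 6 methyl cycle genes 4 lie to the left of the dashed line, and 4 of 5 regulators to its right.

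Homoserine supply held 3 rises and no fall in 5 genes, with a median difference of 0.23. HOM3, which encodes aspartate kinase, the entry step that is known to be feedback-regulated by threonine, had 13.55, 13.64 and 13.57 in the deletion arrays and 13.04, 13.04 and 13.09 in the wild-type arrays. It rose by 0.53 (SE 0.05, adjusted p = 1.8e-04), with no overlap between the groups. MET2, which encodes homoserine O-acetyltransferase and opens the branch to methionine, had 12.71, 12.69 and 12.69 in the deletion arrays and 12.24, 12.38 and 12.22 in the wild-type arrays. It rose by 0.42 (SE 0.06, adjusted p = 0.0012). HOM2, the aspartate semialdehyde dehydrogenase gene, rose by 0.23 (SE 0.05), a call that ended after array centring (0.08). HOM6, the homoserine dehydrogenase gene, differed by 0.05 (95% interval -0.09 to 0.18) and MET17, the sulfhydrylase gene that fixes sulfide, by 0.05 (95% interval -0.08 to 0.18). Neither passed, and the deletion and wild-type values of both overlapped.

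The methyl cycle genes held 1 rise and 1 fall in 6, with a median difference of 0.08, close to that of all tested genes. SAM1, which encodes a synthetase of S-adenosylmethionine, had 14.001, 13.997 and 13.955 in the deletion arrays and 14.19, 14.16 and 14.22 in the wild-type arrays. It was 1.15-fold lower (log2 difference -0.21, SE 0.04, adjusted p = 0.0069), the 1 fall among the sulfur genes. Its paralog SAM2 had 14.16, 14.15 and 14.10 in the deletion arrays and 14.02, 13.99 and 14.07 in the wild-type arrays. The groups did not overlap, but the difference of 0.11 (95% interval -0.0012 to 0.22, adjusted p = 0.0799) did not pass, though it did after quantile normalization (0.14, adjusted p = 0.0461). MHT1, which encodes the S-methylmethionine homocysteine methyltransferase, had the largest difference of the step. It read 10.73, 10.66 and 10.61 in the deletion arrays and 10.45, 10.51 and 10.29 in the wild-type arrays, a rise of 0.25 (SE 0.07, adjusted p = 0.0235). All deletion values were above all wild-type values. The call ended in 3 of 6 fits that left out an array, without deletion replicate 1 or 2 or wild-type replicate 1, with adjusted p from 0.0509 to 0.0711.

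SAM4, the gene of the other homocysteine methyltransferase, differed by 0.18 (95% interval -0.05 to 0.41), and it passed without deletion replicate 1 (0.26, adjusted p = 0.0437). MET6, the methionine synthase gene, differed by -0.03 (95% interval -0.14 to 0.08), and SAH1, the gene of the hydrolase that splits S-adenosylhomocysteine, by 0.06 (95% interval -0.05 to 0.17). Array centring turned MET6 into a call of lower (centred difference -0.18, adjusted p = 0.0232) and ended the MHT1 call (0.10), as did quantile normalization (0.06). The size of the differences moved with the brightness of the probe sets, and the part of this in the results was not tested. Of the 2 sulfur genes with a mean log2 signal under 11, MHT1 and MET31, 1 rose, with a median difference of 0.18, against 0.21 and 46.7% higher for all tested genes there. Of the 7 from 11 to 12, 7 rose, with a median of 0.68, against 0.07 and 33.6% higher for all tested genes there. Of the 8 from 12 to 13, 7 rose, with a median of 0.42, against 0.07 and 35.1% for all tested genes, and of the 9 from 13 to 14, 7 rose, with a median of 0.16, against -0.02 and 30.5% for all tested genes. Of the 7 with a mean signal of 14 or more, namely HOM2, HOM6, MET17, MET6, SAM1, SAM2 and SAH1, 1 rose and 1 fell, with a median difference of 0.05, against -0.08 and 20.5% higher for all tested genes there.

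All 4 transsulfuration genes rose, with a median difference of 0.54, but in pairs of unlike size. STR2 and STR3 encode cystathionine gamma-synthase and cystathionine beta-lyase, which run from cysteine to homocysteine. STR2 (YJR130C) had 11.65, 11.86 and 11.79 in the deletion arrays and 10.60, 10.77 and 10.74 in the wild-type arrays, a rise of 1.06 (SE 0.07, adjusted p = 6.8e-05). STR3 (YGL184C) had 11.66, 11.68 and 11.56 in the deletion arrays and 10.71, 10.90 and 10.51 in the wild-type arrays, a rise of 0.92 (SE 0.10, adjusted p = 4.7e-04). Neither gene had overlapping groups, and both were called in every alternative run. CYS4 and CYS3 encode cystathionine beta-synthase and cystathionine gamma-lyase, which run the other way, from homocysteine to cysteine. CYS4 rose by 0.16 (SE 0.05, adjusted p = 0.0383) and CYS3 rose by 0.16 (SE 0.04, adjusted p = 0.0174). After array centring neither was called, with CYS4 at 0.0050 and CYS3 at 0.0018, and after quantile normalization CYS4 was not (0.13). The CYS4 call ended in 5 of 6 fits that left out an array (adjusted p from 0.0569 to 0.11, the exception being without wild-type replicate 3), and the CYS3 call ended without deletion replicate 2 (adjusted p = 0.0541).

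Of the 5 regulator genes 4 rose and none fell, with a median difference of 0.68. After array centring the counts were also 4 and 0, against 27.2% and 33.1% of all tested genes. MET4 (YNL103W), the gene of the pathway's activator, had 12.12, 12.25 and 12.27 in the deletion arrays and 11.56, 11.47 and 11.57 in the wild-type arrays. It rose by 0.68 (SE 0.06, adjusted p = 1.9e-04). MET30 (YIL046W), the gene of the F-box protein that restrains Met4, had 12.07, 12.10 and 12.08 in the deletion arrays and 11.49, 11.48 and 11.44 in the wild-type arrays, a rise of 0.61 (SE 0.04, adjusted p = 6.2e-05). The genes of the activator and of its inhibitor were thus higher in the same arrays.

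MET28 (YIR017C), which encodes a bZIP cofactor that helps Met4 complexes bind DNA, had 12.65, 12.57 and 12.61 in the deletion arrays and 11.51, 11.87 and 11.29 in the wild-type arrays. It rose by 1.05 (SE 0.14, adjusted p = 0.0011), the wild-type arrays being the scattered ones. MET32 (YDR253C) had 11.64, 11.88 and 11.92 in the deletion arrays and 10.29, 10.83 and 10.49 in the wild-type arrays, a rise of 1.27 (SE 0.15, adjusted p = 6.2e-04). Within the low-spike arrays, where 1 deletion array stands against 2 wild-type arrays, its difference was 1.07 (adjusted p = 0.0659). MET31, the paralog of MET32, had 10.25, 10.18 and 10.37 in the deletion arrays and 10.16, 10.40 and 9.91 in the wild-type arrays. The groups overlapped and the difference was 0.11 (95% interval -0.20 to 0.42), a value that was -0.04 after array centring and -0.12 after quantile normalization.

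Ratios between related genes within an array do not depend on the scale of that array, and only their change between strains is read here, as unequal change. The pairs were chosen after the values above were seen, and the exact two-sided permutation test of 3 against 3 arrays cannot go below p = 0.1. The log2 ratio of SUL2 to SUL1 was 0.26 ± 0.02 in the deletion strain and -0.20 ± 0.02 in wild type (SD, n = 3 each), a change of 0.46 (exact permutation p = 0.1). For SAM2 to SAM1 it was 0.15 ± 0.0085 in the deletion strain and -0.17 ± 0.01 in wild type (SD, n = 3 each), a change of 0.32 (exact permutation p = 0.1). The arrays of the strains did not overlap in either ratio, as the choice of these pairs already implies. SAM1 and SAM2 are known as close paralogs, and whether their probe sets share signal was not tested.

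The MET32 to MET31 ratio changed by 1.16 and the SAM3 to MMP1 ratio by 1.03, again with no overlap between strains. STR2 relative to CYS4 changed by 0.90 and STR3 relative to CYS3 by 0.77, the first being the pair that forms cystathionine and the second the pair that splits it. Each of these 4 changes had an exact permutation p of 0.1. A ratio does not remove the dependence on brightness described above. STR2 and STR3 had a mean log2 signal of 11 to 12, and CYS4 and CYS3 of 13 to 14. All tested genes in these ranges had median differences of 0.07 and -0.02. The part of brightness in the ratios was not tested. The ratio of SAM4 to MHT1 was 1.69 ± 0.20 in the deletion strain and 1.76 ± 0.15 in wild type (SD, n = 3 each), a change of -0.07 (exact permutation p = 0.7), and the groups overlapped. In the genome table SAM3 lies next to SAM4 on chromosome XVI, and MHT1 next to MMP1 on chromosome XII. In each neighbouring pair the permease gene had the larger difference.

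**Figure D4:**
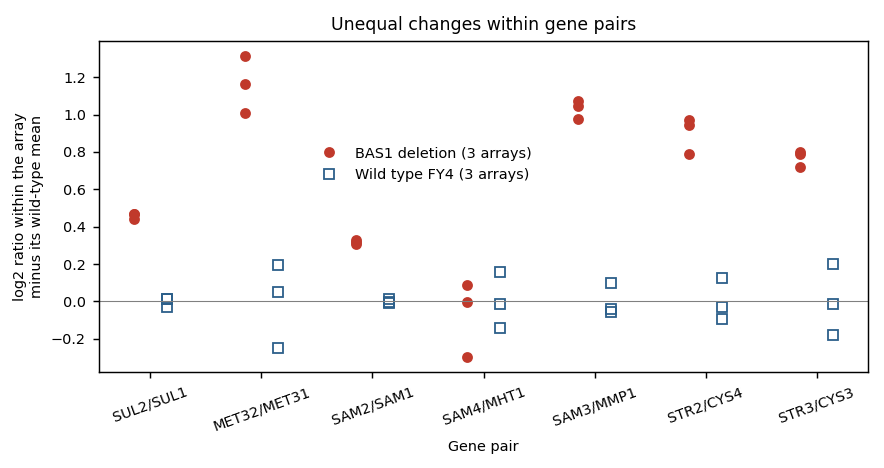
Log2 ratio of 7 gene pairs within each array, minus the wild-type mean of that ratio. Filled red circles are the 3 deletion arrays and open blue squares the 3 wild-type arrays. In 6 pairs all deletion arrays lie above all wild-type arrays, and for SAM4 over MHT1 they overlap.

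A further 47 genes tied to sulfur metabolism were listed, of which 45 were measured (SOA1 and YLL058W were not analysed here). Of the measured genes, 17 were higher and 8 lower (15 and 19 after array centring, 15 and 17 after quantile normalization), with a median difference of 0.12. On the deposited scale the shares of 37.8% higher and 17.8% lower were near the 39.6% and 19.8% of all tested genes. After array centring they were 33.3% and 42.2%, against 27.2% and 33.1% of all tested genes. After quantile normalization they were 33.3% and 37.8%, against 24.9% and 35.5% of all tested genes. The rises were largest among transporters and enzymes that scavenge sulfur from other compounds. YCT1, a cysteine transporter gene, had 11.59, 11.78 and 11.60 in the deletion arrays and 9.17, 9.54 and 9.41 in the wild-type arrays, 4.86-fold higher (log2 difference 2.28, SE 0.11, adjusted p = 1.5e-05). MUP1, the high-affinity methionine permease gene, had 13.05, 13.16 and 13.02 in the deletion arrays and 11.23, 11.23 and 11.02 in the wild-type arrays, 3.77-fold higher (log2 difference 1.91, SE 0.08, adjusted p = 9.2e-06). BDS1, a sulfatase gene, had 11.16, 11.39 and 11.17 in the deletion arrays and 9.39, 9.45 and 9.24 in the wild-type arrays, 3.68-fold higher (log2 difference 1.88, SE 0.09, adjusted p = 1.4e-05). Each of these groups was well separated. JLP1, which encodes a dioxygenase that releases sulfite from sulfonates, had 8.64, 8.72 and 8.76 in the deletion arrays and 7.07, 6.94 and 6.76 in the wild-type arrays, 3.44-fold higher. Its log2 difference of 1.78 became 0.98 after quantile normalization.

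Other uptake genes were named after their values were seen. AGP3, an amino acid permease gene, rose by 1.38 (SE 0.07), or 0.84 after quantile normalization, and SSU1, the sulfite pump gene, by 0.49 (SE 0.07), whereas OPT1, a glutathione and oligopeptide transporter gene, differed by -0.12 (95% interval -0.28 to 0.05) and was called lower after array centring (-0.27) and quantile normalization (-0.29). IRC7, a beta-lyase gene, was lower (difference -0.48, SE 0.09, and -0.74 after quantile normalization). Of 7 redox genes 4 rose and 0 fell. For this and the other small groups below, the shares of all tested genes were 39.6% higher and 19.8% lower. After array centring they were 27.2% and 33.1%, and after quantile normalization 24.9% and 35.5%. GRX8, a glutaredoxin gene, rose by 1.58 (SE 0.38, adjusted p = 0.0115), with 11.43, 10.88 and 11.83 in the deletion arrays and 10.20, 10.16 and 9.05 in the wild-type arrays. Its replicates were scattered in both strains, wild-type replicate 3 being lowest. GTO3, a glutathione transferase gene, rose by 1.47 (SE 0.15), with 2 of 3 wild-type arrays above background, and by 0.69 after quantile normalization. The methionine sulfoxide reductase genes MXR2 and MXR1 rose by 0.92 (SE 0.29) and 0.39 (SE 0.09). With 1 array left out MXR2 ran from 0.60 (without wild-type replicate 3) to 1.13. The MXR2 call ended in 3 of 6 fits that left out an array, without deletion replicate 1 or 3 or wild-type replicate 1, with adjusted p from 0.0537 to 0.10.

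**Figure D5:**
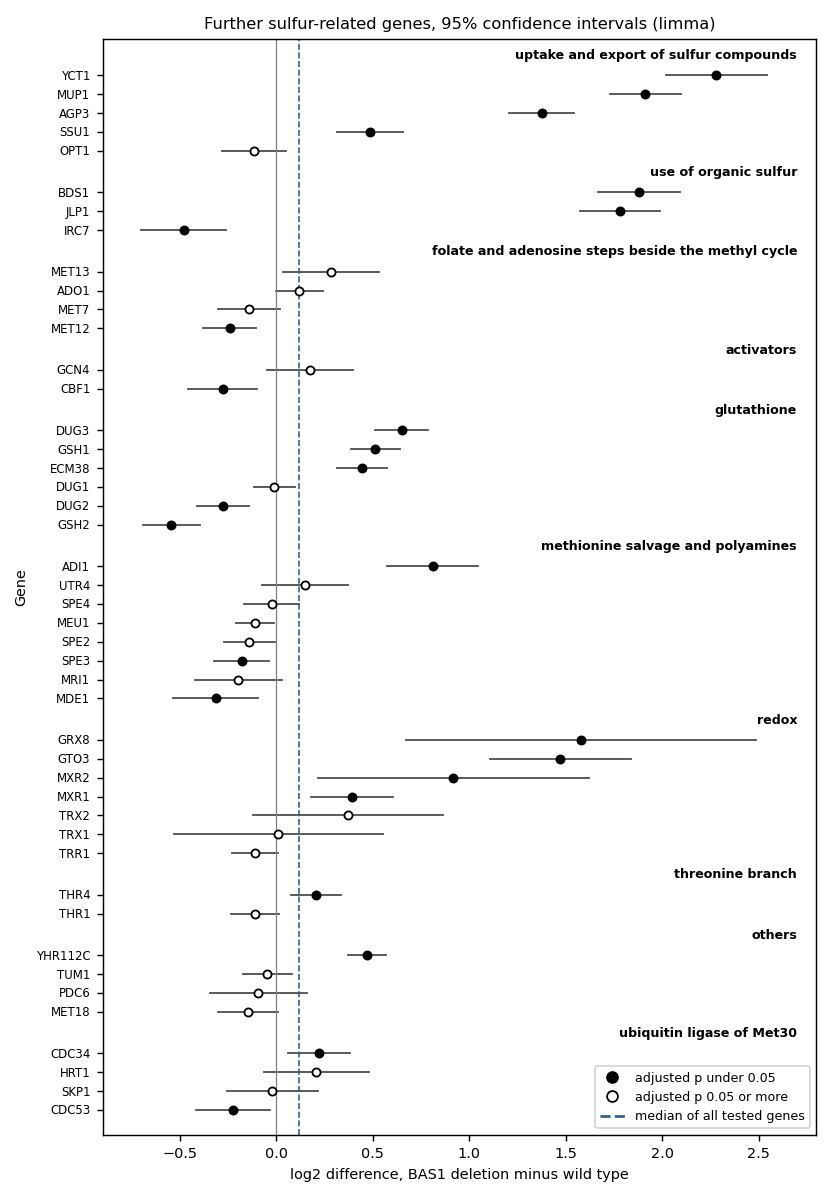
Log2 difference, deletion minus wild type, of the 45 further sulfur-related genes with limma's 95% confidence interval, by role. Filled circles passed the threshold, open circles did not, and the dashed line is the median of all tested genes, 0.11. YCT1, MUP1, BDS1 and JLP1 lie furthest to the right, and GSH2 furthest to the left.

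Glutathione genes split, with 3 higher and 2 lower of 6. GSH1, which encodes the first enzyme of glutathione synthesis, rose by 0.51 (SE 0.05, adjusted p = 3.5e-04). GSH2, which encodes the next enzyme, had 11.08, 11.20 and 11.08 in the deletion arrays and 11.58, 11.70 and 11.70 in the wild-type arrays, 1.46-fold lower (log2 difference -0.54, SE 0.06, adjusted p = 4.8e-04). The genes of the 2 steps thus moved in opposite directions, with no overlap between strains in either. Of glutathione breakdown genes, DUG3 rose by 0.65 (SE 0.06) and ECM38 by 0.44 (SE 0.05), DUG2 was lower (difference -0.28, SE 0.06, and -0.52 after quantile normalization) and DUG1 differed by -0.01 (95% interval -0.12 to 0.10), with a call of lower after array centring (-0.17).

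The folate and adenosine genes that serve the methyl cycle held no rise and 1 fall in 4. After array centring and after quantile normalization they held 2 falls, against 33.1% and 35.5% of all tested genes. MET12, a methylenetetrahydrofolate reductase gene, was lower (difference -0.24, SE 0.06, adjusted p = 0.0103, and -0.37 after quantile normalization). Its counterpart MET13 differed by 0.28 (adjusted p = 0.0511) and passed without deletion replicate 3 (0.37, adjusted p = 0.0228). MET13 also passed with the replicate block, the spike block, the dim-gene filter and the intensity trend. It did not pass after array centring (0.13) or quantile normalization (0.16). MET7, the folylpolyglutamate synthetase gene, differed by -0.14 and ADO1, the adenosine kinase gene, by 0.12, neither passing, though MET7 was lower after array centring (-0.30, adjusted p = 0.0080) and quantile normalization (-0.25). Methionine salvage and polyamine genes held 1 rise, ADI1 at 0.81 (SE 0.10), and 2 falls, MDE1 (difference -0.32, SE 0.09) and SPE3 (difference -0.18, SE 0.06), in 8. After array centring 6 of the 8 were lower, against 33.1% of all tested genes. After quantile normalization 5 were lower, against 35.5% of all tested genes, with SPE3 at -0.29. The MDE1 call ended without deletion replicate 1 or 2 (adjusted p = 0.0692 and 0.0622), and the SPE3 call in 4 of 6 fits that left out an array, deletion replicate 1 or 3 or wild-type replicate 2 or 3 (adjusted p from 0.0887 to 0.11). In the threonine branch, which shares homoserine, THR4 rose by 0.21 (SE 0.05) and THR1 differed by -0.11 (95% interval -0.24 to 0.01), with a call of lower after array centring (-0.27) and quantile normalization (-0.23). The THR4 call ended in 3 of 6 such fits, without deletion replicate 2 or 3 or wild-type replicate 1 (adjusted p from 0.0522 to 0.0589), and after array centring (0.05) and quantile normalization (0.17).

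Of the activators that act beside Met4, CBF1, a gene of a DNA-binding partner, had 10.32, 10.17 and 10.11 in the deletion arrays and 10.57, 10.46 and 10.40 in the wild-type arrays. It was 1.21-fold lower (difference -0.28, SE 0.07, adjusted p = 0.0179), with no overlap between the groups and -0.50 after quantile normalization, and the call ended in 3 of 6 fits that left out an array, deletion replicate 2 or 3 or wild-type replicate 1 (adjusted p from 0.0582 to 0.0614). GCN4, the general activator of amino acid synthesis genes, had 14.36, 14.38 and 14.30 in the deletion arrays and 14.37, 14.02 and 14.12 in the wild-type arrays. Wild-type replicate 1 was as high as the deletion arrays, and the difference of 0.17 did not pass (adjusted p = 0.145). Without wild-type replicate 1 it was 0.27 (adjusted p = 0.0170). Of the 4 genes for the partners of Met30 in its ubiquitin ligase, CDC34 was higher (difference 0.22, SE 0.07) and CDC53 lower (difference -0.23, SE 0.08). Each of these 2 calls ended in 4 of 6 fits that left out an array. For CDC34 these were without deletion replicate 1 or 2 or wild-type replicate 2 or 3 (adjusted p from 0.0751 to 0.0846), and for CDC53 without deletion replicate 1 or 3 or wild-type replicate 1 or 2 (adjusted p from 0.107 to 0.142). The CDC34 call also ended after array centring (0.07) and quantile normalization (0.11), and CDC53 was -0.36 after the last. SKP1 and HRT1 differed by -0.02 (95% interval -0.26 to 0.21) and 0.21 (95% interval -0.07 to 0.48).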

How the data were processed

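The authors deposited linear intensities for 10928 probe sets on each array. Of tools, R 2.8.0, affy and RMA stand in the submitters' processing notes. RMA in general corrects background, normalizes between arrays and summarises probes, pulls dim values together and makes no call of presence. The sources used here do not give its settings.

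Log2 was taken of the deposited intensities. Of the probe sets, 5498 had 1 S. cerevisiae gene of the RefSeq table (R64), matched by gene identifier. The probe set with the highest mean stood for each gene, which gave 5449 genes. The strains were set against each other in limma 3.58.1 under R 4.3.3, using lmFit and eBayes with strain alone in the model. Benjamini-Hochberg adjustment ran over all 5449 genes, with a threshold of 0.05. The procedure was also run on simulated data with independent noise in each gene and few changed genes. These arrays differ from that setting, so the simulation does not check the calls made here. Alternatives were array centring, quantile normalization, replicate and spike blocks, each spike level alone, probe set averaging, a filter on dim genes, an intensity trend, a threshold of 0.01 and leaving out each array. The number of arrays limits the precision. Array values of every member past the threshold at 0.5 log2 or more, and of the largest in each step, are named, with up to 5 further genes in each direction at that size, CBF1 and GCN4. Values of other genes were added after they were seen. The members, lists, tests and alternatives were chosen with earlier results of these data known. Same-numbered replicates were not treated as pairs in the main fit: their deviations from the group means correlated at 0.44, -0.51 and -0.44 over genes. Deletion replicate 2 with wild-type replicate 3 correlated at 0.75, and deletion replicate 3 with wild-type replicate 2 at 0.46. The remaining combinations ran from -0.53 to 0.14. Arrays of the strains thus share some deviations, and no alternative used that matching. No sequences were used here, and the RefSeq table served for names and for which genes neighbour each other.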

Additional observations from a re-analysis of the deposited data

How the results depend on the processing

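Of the 24 called sulfur genes, 24 had the same direction in all 16 alternatives. The replicate block, probe set averaging, dim-gene filter, intensity trend and stricter threshold leave each sulfur gene's difference unchanged by construction. The direction could not change in those alternatives, so they do not check it. In none of the 24 called genes did the groups overlap. Leaving out an array, taking a single spike level or blocking by it therefore could not turn a direction either. Only array centring and quantile normalization could have turned it. Of the 24 genes, 11 were called in all 16 alternatives: MMP1, MUP3, SAM3, MET1, MET8, HOM3, STR2, STR3, MET4, MET28 and MET30. Array centring gave 15 higher and 3 lower sulfur genes with a median of 0.10, 1803 lower genes in all and 19 lower further pathway genes. The differences that it turned were MET14 at -0.12, HOM6 at -0.11, MET17 at -0.11, SAM2 at -0.044, SAH1 at -0.097, MET31 at -0.044 and ADO1 at -0.035, with UTR4 and TRX1 among further pathway genes not described, and 0 of these 9 passed. Quantile normalization gave 2 lower sulfur genes, 1356 higher and 1935 lower genes in all, 17 lower further pathway genes and MET31 at -0.12. The shift of array medians is removed in both by construction.

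With the replicate number as a block, which the data do not bear out as a pairing, 22 sulfur genes were called higher and 1 lower, 2130 and 1010 genes in all, the calls of MET5, CYS4, MXR2 and SPE3 ended, and SAM4 and MET13 passed. With spike level as a block 21 sulfur genes were called higher and 1 lower, 2222 and 1195 genes in all, and MET14 was -0.027. Among the described genes, the calls of MET5, CYS4 and CDC53 ended there, and MET7, MET13 and HRT1 passed. The low-spike arrays alone gave 11 higher and 0 lower sulfur genes, 1102 higher and 491 lower genes in all, 2 lower further pathway genes, MET14 at -0.095, MET31 at -0.031 and DUG1 at 0.010. The high-spike arrays alone gave 0 lower sulfur genes, a median of 0.35, 614 lower genes in all, 2 lower further pathway genes MET17 at -0.033 and SKP1 at 0.073. These fits hold fewer samples. The threshold of 0.01 left 679 lower genes and 3 lower further pathway genes, by construction. With 1 array left out, higher sulfur genes numbered 19 to 23 and lower ones 1, the median ran from 0.26 to 0.30 and lower further pathway genes numbered 5 to 7. All genes gave 1847 to 2053 higher and 862 to 979 lower calls. MET14 turned to -0.0068 without deletion replicate 2, -0.0074 without deletion replicate 3 and -0.039 without wild-type replicate 1 (range -0.039 to 0.12), and MET31 to -0.013 without wild-type replicate 3 (range -0.013 to 0.23). DUG1 turned to 0.015 without deletion replicate 3 (range -0.025 to 0.015), and SKP1 to 0.019 without deletion replicate 1 and 0.078 without wild-type replicate 2 (range -0.096 to 0.078). The cause of these reversals was not tested. The changes of pair ratios were also run with each array left out, an alternative chosen after seeing the data, and 6 of 7 kept their sign. The exception, SAM4 to MHT1, ran from -0.15 to 0.04. In the 6 pairs that kept it the arrays of the strains did not overlap, so their sign could not have turned. The background correction could not be varied, since the deposited values are summarised.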
